A study of Mus musculus with 46 samples.

Results

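The genes described here were 33 genes of adipocytes, lipid droplets and lipid synthesis, chosen by name for what they are known to do, out of 56980 genes in the hSS2 count table and 56941 in the hSS1 table. Their levels were measured by RNA sequencing of 46 whole tumours from mouse models of synovial sarcoma, a soft tissue cancer driven by a fusion of SS18 with an SSX protein. All 33 had a row in both tables, and 30 had enough reads to be tested in hSS2 tumours and 21 in hSS1 tumours. The genes were also sorted by whether their level followed that of Adipoq, which encodes the hormone adiponectin and is made by mature fat cells.

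The hSS2 mice expressed SS18::SSX2 and the hSS1 mice SS18::SSX1, in each case from the Rosa26 locus after Cre recombination. Tumours arose in the limb after TATCre protein, a cell-permeable recombinase, was injected at 8 days of age, and every group, controls included, shared the fusion allele and the injection. The groups were hSS2 control (13 tumours), hSS2 with homozygous floxed Pbrm1 (8), Arid1a (8) or Arid1b (8), hSS1 control (5) and hSS1 with floxed Pbrm1 (4), named Pbrm1-fl, Arid1a-fl and Arid1b-fl below. PBRM1, ARID1A and ARID1B are subunits of BAF chromatin remodelling complexes. The mice were of both sexes, of a mixed CB57Bl/6-svJ strain and aged 2 to 6 months. No promoter restricted Cre to a cell type, and host cells in a tumour that the protein did not reach kept their floxed gene. Nothing in the labels gives which tumours came from the same litter, so p-values measure the spread between these tumours.

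Fat cells store triglyceride in a large droplet coated by perilipins and CIDE proteins, take up fatty acids from blood with lipoprotein lipase and CD36, and release them again by lipolysis. Their identity is set by the transcription factors PPARG and C/EBPα. Synthesis of new fatty acids is a separate task that many growing cells carry out. ATP citrate lyase makes acetyl-CoA, acetyl-CoA carboxylase makes malonyl-CoA, fatty acid synthase builds the chain and stearoyl-CoA desaturase introduces a double bond. Limb tumours lie beside muscle and fat, so whole tumour RNA can hold transcripts of both.

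The libraries held 10613976 to 21294657 counted reads in the hSS2 tumours and 10137668 to 14130024 in the hSS1 tumours. Levels are given as CPM, the reads of a gene divided by all counted reads of its library and scaled to 1000000, and 3 reads, the limit at or under which a gene was treated as not measurable, stood at 0.141 CPM in the deepest library and 0.296 CPM in the shallowest. Pbrm1 ranged from 94.1 to 134 CPM in the hSS2 Pbrm1-fl tumours against 179.7 to 324 CPM in controls. In hSS1 it ranged from 98.2 to 253 CPM in the Pbrm1-fl tumours against 278 to 356 CPM. Only hSS1 Pbrm1-fl replicate 3 was that low, and the next lowest was at 214.7 CPM. In the edgeR test described below Pbrm1 did not pass in hSS1, having a log2 fold change of -0.75 (adjusted p = 0.193). Arid1a ranged from 239 to 288 CPM in Arid1a-fl tumours against 254 to 593 CPM in controls, where control replicate 9 was the lowest and lay within the Arid1a-fl range. Arid1b ranged from 110.5 to 348 CPM in Arid1b-fl tumours against 229.8 to 678 CPM in controls, so those groups overlapped. Mouse numbers in the labels fell into ranges that coincided with the floxed gene, so each comparison was also made with only the controls of the same range. In bulk tissue fewer cells of a type and less RNA per cell cannot be told apart.

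Promoters of 3 fat cell genes and 2 genes of fatty acid synthesis are shown because the levels of these kinds of gene ran apart across tumours. Each line gives the 250 bases before a RefSeq transcription start in mouse build GRCm38.p6, read 5′ to 3′ on the strand of the gene, with capitals marking matches to the motifs spelled out after them.
Adipoq, chr16:23146286-23146535, plus strand: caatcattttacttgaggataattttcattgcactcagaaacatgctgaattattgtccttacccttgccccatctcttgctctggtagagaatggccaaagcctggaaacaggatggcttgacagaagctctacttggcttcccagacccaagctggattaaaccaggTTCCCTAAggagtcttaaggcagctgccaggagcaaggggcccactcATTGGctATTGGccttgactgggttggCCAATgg
Plin1, chr7:79732777-79733026, minus strand: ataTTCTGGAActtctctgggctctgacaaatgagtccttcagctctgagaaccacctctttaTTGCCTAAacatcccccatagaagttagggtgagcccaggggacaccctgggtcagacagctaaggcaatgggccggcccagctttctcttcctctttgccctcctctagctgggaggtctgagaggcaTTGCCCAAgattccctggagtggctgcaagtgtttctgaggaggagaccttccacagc
Cidec, chr6:113435761-113436010, minus strand: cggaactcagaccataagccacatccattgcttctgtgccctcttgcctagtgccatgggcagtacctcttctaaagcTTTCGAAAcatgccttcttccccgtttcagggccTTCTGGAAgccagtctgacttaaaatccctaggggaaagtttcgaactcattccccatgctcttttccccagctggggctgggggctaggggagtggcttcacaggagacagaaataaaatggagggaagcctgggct
Fasn, chr11:120824548-120824797, minus strand: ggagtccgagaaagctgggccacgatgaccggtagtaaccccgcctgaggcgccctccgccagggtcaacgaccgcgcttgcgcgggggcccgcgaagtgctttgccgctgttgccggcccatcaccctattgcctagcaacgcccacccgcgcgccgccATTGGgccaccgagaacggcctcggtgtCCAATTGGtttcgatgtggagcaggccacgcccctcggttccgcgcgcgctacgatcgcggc
Acaca, chr11:84195188-84195437, plus strand: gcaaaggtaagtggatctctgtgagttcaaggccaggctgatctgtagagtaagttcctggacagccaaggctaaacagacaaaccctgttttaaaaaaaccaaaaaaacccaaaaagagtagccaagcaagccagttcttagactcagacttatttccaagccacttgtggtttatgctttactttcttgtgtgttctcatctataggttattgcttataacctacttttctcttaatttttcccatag

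The windows of Adipoq, Cidec and Fasn ended where the GENCODE gene begins, that of Plin1 ended 127 bases inside the gene, and that of Acaca ended 65766 bases inside it, at an internal start. The RefSeq table held 24 of the 33 genes, and Scd1 was not among those with an entry. The Fasn window was 69.2% G and C with 33 CpG dinucleotides, while the Adipoq window was 48.8% G and C with 0 CpG, and the medians over all 32841 promoters were 52.4% and 6. Plin1 held 1 CpG and Cidec 4. The Acaca window, at its internal start, was 39.2% G and C with 0 CpG, so Fasn and Acaca differed in this. Another RefSeq start of Cidec, not shown, had 56.8% G and C and 6 CpG.

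Both strands were searched for 6 motifs. The C/EBP-type motif TTNCNNAA was found in 36.85% of all promoters, and it had 1 match in Adipoq, 3 in Plin1 and 2 in Cidec. The CCAAT box was found in 33.86% of all promoters, and it had 3 matches in Adipoq and 3 in Fasn, of which the last 2 overlapped each other. The PPAR element AGGTCANAGGTCA (0.03% of promoters), its part AGGTCA (14.03%), the sterol regulatory element TCACNCCAC (1.05%) and the TATA box TATAAA (12.37%) had no match in these windows, which says only that the letters were not in this stretch. The Acaca window had no match to any of the 6.

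Adipoq itself differed widely between tumours of the same genotype. It ranged from 0.0583 to 26.2 CPM (median 0.823) in hSS2 controls, from 0 to 20.5 CPM (median 0.773) in Pbrm1-fl, from 0 to 2.68 CPM (median 0.395) in Arid1a-fl and from 0 to 13 CPM (median 1.54) in Arid1b-fl tumours. The highest tumours were control replicate 4 and Pbrm1-fl replicate 1. Adipoq exceeded 1 CPM in 16 of 37 hSS2 tumours and had no read in 6. It was 0.178, 0.0815, 0, 0 and 0 CPM in hSS1 controls and 0.585, 0.181, 0 and 0 CPM in hSS1 Pbrm1-fl tumours. Only Pbrm1-fl replicate 1 among the hSS1 tumours was above 3 reads. The hSS1 and hSS2 libraries came in separate tables, so background and table cannot be told apart.

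Over the 37 hSS2 tumours, Spearman's rho with Adipoq was 0.6 or more for 16 of the other 32 genes, which are said here to follow Adipoq, between 0.3 and 0.6 for 7, and under 0.3 for 9, which do not follow it. Among all 17286 tested genes of at least 1 CPM on average, 7.39% had a rho of 0.6 or more and the median was -0.124. The 32 genes were not filtered in this way, and followers such as Lep, Retn and Cidea lie outside that set. The shares are thus of unlike sets. These values are a description, since the tumours also differ in genotype and tissue content and all genes of a tumour share its library. Among the followers and Adipoq the pairwise rho ran from 0.321, for Pparg with Cpt1b, to 0.961, for Adipoq with Cfd, with a median of 0.685 over 136 pairs. The pairs with Adipoq are at 0.6 or more by the sorting rule. The same rule raises the others, so this median is no separate evidence that the genes move together.

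**Figure D1:**
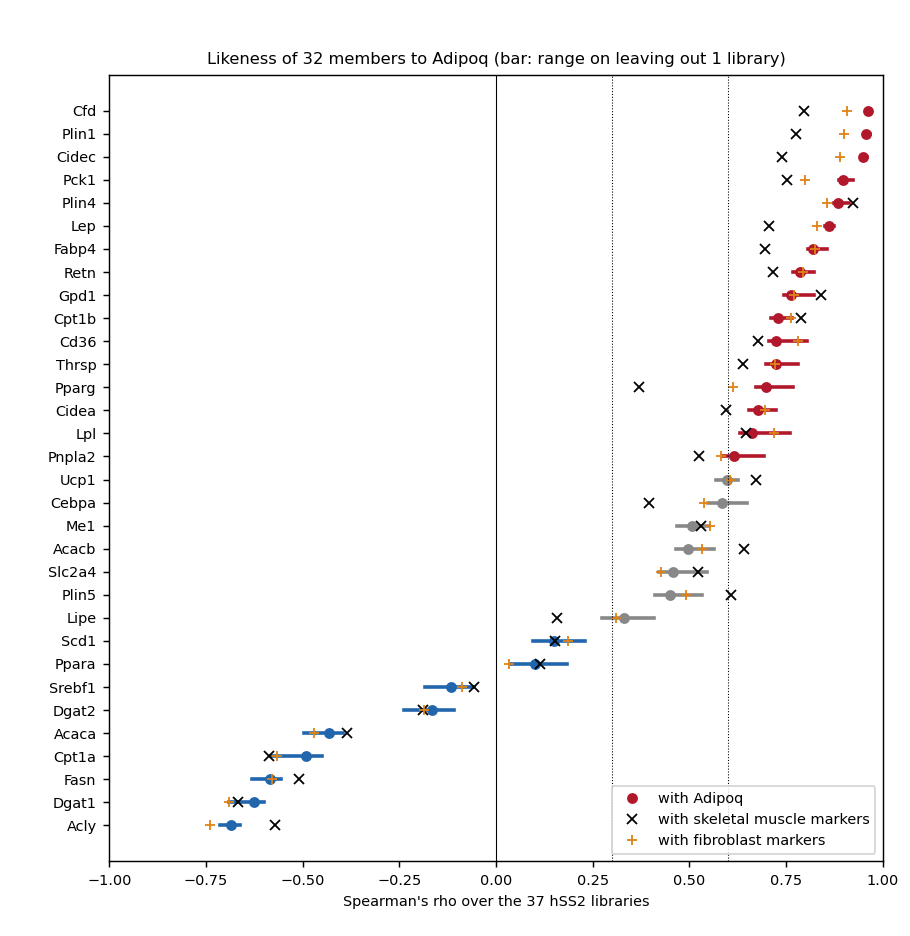
Spearman's rho of 32 genes over the 37 hSS2 tumours. Dots give rho with Adipoq (red follows, grey between, blue does not follow, dotted lines at 0.3 and 0.6), bars its range when each library was left out in turn, crosses rho with the skeletal muscle markers and plus signs rho with the fibroblast markers. Cfd and Plin1 have the highest rho, 0.961 and 0.956, and Acly the lowest, -0.685.

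The secreted fat cell proteins and most droplet proteins followed Adipoq. Spearman's rho was 0.961 for Cfd, the complement factor adipsin, 0.862 for Lep, the hormone leptin, and 0.787 for Retn, resistin. Among droplet proteins rho was 0.956 for Plin1, the main perilipin of fat cells, 0.95 for Cidec, which helps droplets to fuse, 0.885 for Plin4 and 0.678 for Cidea. Lep, Retn and Cidea had 3 reads or fewer in 22, 25 and 22 of the 37 hSS2 tumours. Their rho thus ranks many tumours by few or no reads. Plin4 had a higher rho with the skeletal muscle markers, 0.924. Plin5, a perilipin of oxidative tissue such as muscle, stood between at 0.451, below its rho of 0.607 with the skeletal muscle markers, and did not exceed 2.26 CPM in hSS2 tumours.

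Plin1 ranged from 0 to 31.1 CPM (median 1.70) in hSS2 controls, from 0 to 32.3 CPM (median 1.06) in Pbrm1-fl, from 0 to 2.46 CPM (median 0.584) in Arid1a-fl and from 0.0613 to 14.6 CPM (median 2.02) in Arid1b-fl tumours. Its levels were 0.178, 0, 0.174, 0.141 and 0 CPM in hSS1 controls and 0.877, 0.0908, 0 and 0 CPM in hSS1 Pbrm1-fl tumours. The 2 tumours highest in Adipoq were also the highest in Plin1, and the hSS2 groups overlapped. Cidec ranged from 0 to 25.2 CPM (median 0.823) in hSS2 controls, from 0 to 18.6 CPM (median 1.63) in Pbrm1-fl, from 0 to 1.64 CPM (median 0.277) in Arid1a-fl and from 0 to 11.1 CPM (median 1.36) in Arid1b-fl tumours. Cidec was 0, 0, 0.0869, 0 and 0 CPM in hSS1 controls and 1.17, 0.272, 0 and 0 CPM in hSS1 Pbrm1-fl tumours.

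Genes of fatty acid uptake followed Adipoq. Fabp4, a fatty acid carrier of fat cells and of some vessels and macrophages, had a rho of 0.821 and ranged from 0.0741 to 55.4 CPM (median 10.97) in hSS2 controls, from 0.0511 to 53.04 CPM (median 3.84) in Pbrm1-fl, from 0.139 to 9.09 CPM (median 2.54) in Arid1a-fl and from 0.188 to 20.3 CPM (median 6.79) in Arid1b-fl tumours. Fabp4 was 0.713, 0.734, 1.04, 0.141 and 1.28 CPM in hSS1 controls and 4.48, 3.27, 0.0986 and 1.78 CPM in hSS1 Pbrm1-fl tumours. In the 6 hSS2 tumours with no Adipoq read Fabp4 lay between 0.0511 and 3.06 CPM, with 3 reads or fewer in 3 of them.

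Lpl, lipoprotein lipase, had a rho of 0.661 and was measurable in every tumour. It ranged from 4.60 to 132 CPM (median 38.1) in hSS2 controls, from 1.68 to 81.6 CPM (median 11.8) in Pbrm1-fl, from 6.996 to 101 CPM (median 22.8) in Arid1a-fl and from 12.3 to 70.1 CPM (median 34.1) in Arid1b-fl tumours. Lpl was 18.1, 25.4, 18.3, 33.97 and 38.9 CPM in hSS1 controls and 21.5, 20.2, 1.68 and 5.79 CPM in hSS1 Pbrm1-fl tumours. In the 6 tumours with no Adipoq read Lpl lay between 2.38 and 101 CPM, the highest of them in Arid1a-fl replicate 1. Cd36, a fatty acid transporter of fat, muscle and vessels, had a rho of 0.725 and spanned 0.762 to 87.8 CPM over the hSS2 tumours.

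The genes that regulate fat cells split. Pparg had a rho of 0.698 and ranged from 0.519 to 5.78 CPM (median 1.38) in hSS2 controls, from 0.562 to 8.57 CPM (median 2.99) in Pbrm1-fl, from 0.485 to 3.14 CPM (median 1.80) in Arid1a-fl and from 0.489 to 4.13 CPM (median 1.57) in Arid1b-fl tumours. Pparg was 2.41, 1.39, 0.695, 0.920 and 2.29 CPM in hSS1 controls and 1.85, 1.09, 5.03 and 1.34 CPM in hSS1 Pbrm1-fl tumours. The hSS1 range thus lay inside the hSS2 range although Adipoq was almost without reads there. Cebpa, which encodes C/EBPα and is also used by myeloid cells, had a rho of 0.584 with Adipoq and 0.741 with the macrophage markers, and was at least 4.99 CPM in the hSS2 tumours. Thrsp, a lipogenic factor, followed at 0.723, while Srebf1, the sterol-regulated activator of lipid synthesis genes, stood at -0.117 and Ppara, the activator of fatty acid oxidation genes, at 0.1.

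Of the genes of triglyceride turnover, Pck1, which feeds glycerol synthesis, had a rho of 0.897, and Gpd1, which makes glycerol 3-phosphate, 0.764. Gpd1 had a higher rho with the muscle markers, 0.841. The enzymes that complete triglyceride synthesis did not follow, with -0.625 for Dgat1 and -0.166 for Dgat2. Of the lipases, Pnpla2, adipose triglyceride lipase, had 0.615 and Lipe, hormone-sensitive lipase, 0.33. Lipe stayed between 13.2 and 40.7 CPM over the hSS2 tumours.

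Genes of fatty acid synthesis had reads in every tumour, and those of the core pathway did not follow Adipoq. Spearman's rho was -0.583 for Fasn, -0.431 for Acaca, -0.685 for Acly and 0.15 for Scd1. Me1, malic enzyme, and Acacb, the carboxylase of oxidative tissue, lay between at 0.507 and 0.497. Of all ranked genes 24.5% had a rho of -0.4 or less. With library sizes scaled by the trimmed mean of M values (TMM), rho was -0.565 for Fasn, -0.328 for Acaca and -0.581 for Acly. Fasn had a rho of 0.777 with Acaca and 0.647 with Acly, but 0.076 with Scd1.

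Fasn, fatty acid synthase, ranged from 184 to 522 CPM (median 314) in hSS2 controls, from 220 to 395 CPM (median 255) in Pbrm1-fl, from 321 to 636 CPM (median 379) in Arid1a-fl and from 232 to 567 CPM (median 268) in Arid1b-fl tumours. Fasn was 461, 332, 359, 599 and 423 CPM in hSS1 controls and 306, 376, 271 and 486 CPM in hSS1 Pbrm1-fl tumours. The 6 hSS2 tumours with no Adipoq read held 261 to 567 CPM of Fasn, and the tumour with the most Adipoq held 321 CPM. Its highest level was 3.45 times its lowest over the hSS2 tumours. Acaca, acetyl-CoA carboxylase, ranged from 128 to 248 CPM (median 191) in hSS2 controls, from 164 to 221 CPM (median 179) in Pbrm1-fl, from 177 to 336 CPM (median 199) in Arid1a-fl and from 137 to 261 CPM (median 176) in Arid1b-fl tumours, and its highest level was 2.62 times its lowest. Acaca was 202, 168, 184, 226 and 218 CPM in hSS1 controls and 209, 261, 162 and 266 CPM in hSS1 Pbrm1-fl tumours.

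Acly, ATP citrate lyase, ranged from 108 to 410.4 CPM (median 172) in hSS2 controls, from 157 to 222 CPM (median 196) in Pbrm1-fl, from 162 to 253 CPM (median 186) in Arid1a-fl and from 121 to 253 CPM (median 181) in Arid1b-fl tumours. Srebf1 ranged from 92.5 to 362 CPM (median 130.3) in hSS2 controls, from 116 to 200.4 CPM (median 134) in Pbrm1-fl, from 116 to 263 CPM (median 162) in Arid1a-fl and from 124 to 295 CPM (median 149) in Arid1b-fl tumours. Scd1, stearoyl-CoA desaturase, spread by 21.2 times, and Me1 by 38.5 times, from its lowest to its highest hSS2 tumour. Scd1 ranged from 32.4 to 238 CPM (median 128) in hSS2 controls, from 16.6 to 215 CPM (median 64.4) in Pbrm1-fl, from 102 to 352 CPM (median 145) in Arid1a-fl and from 44.05 to 261 CPM (median 99.7) in Arid1b-fl tumours. The hSS2 groups overlapped for Acly, Srebf1 and Scd1.

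**Figure D2:**
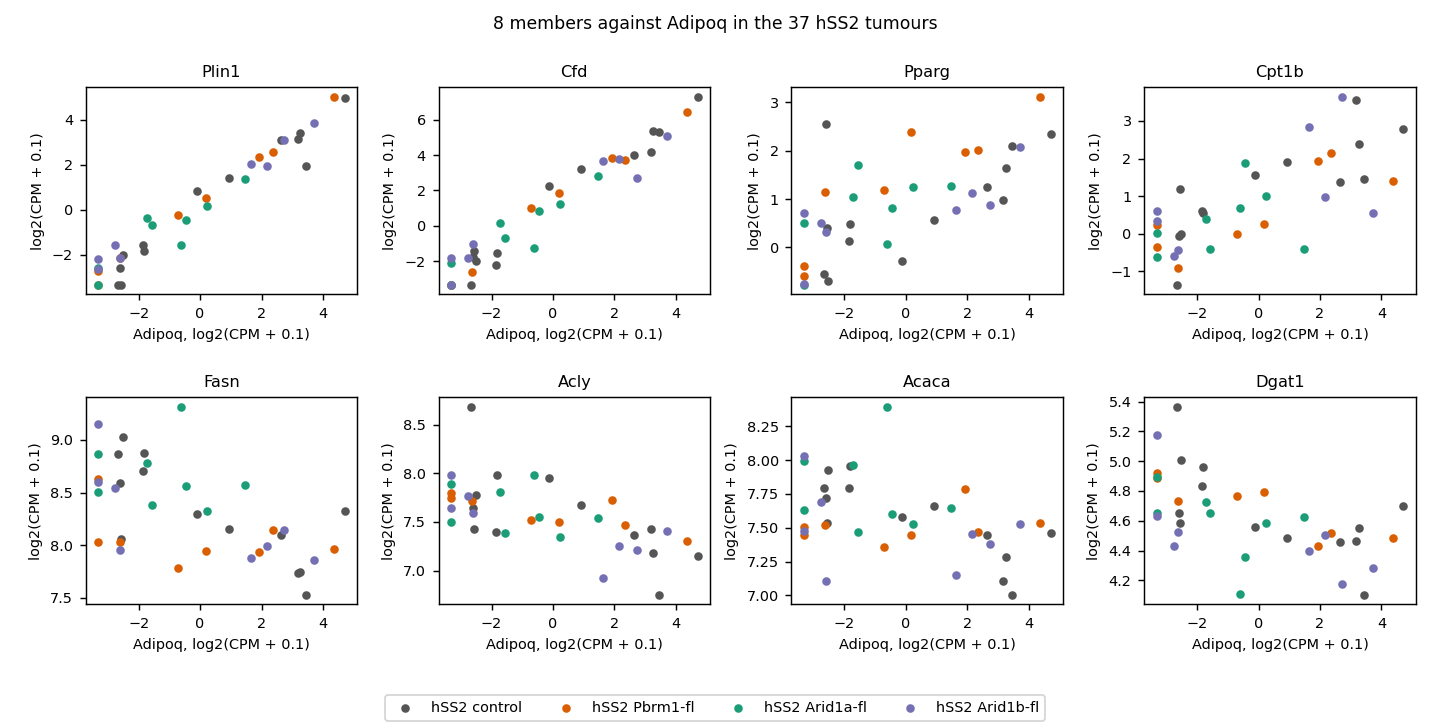
Levels of 8 genes against that of Adipoq in the 37 hSS2 tumours, both axes as log2(CPM + 0.1), with 1 point per tumour coloured by group. Plin1 and Cfd lie along a line with Adipoq (rho 0.956 and 0.961), Pparg and Cpt1b rise with wider scatter (0.698 and 0.729), and Fasn, Acly, Acaca and Dgat1 fall (-0.583, -0.685, -0.431 and -0.625).

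Carnitine palmitoyltransferase 1 carries fatty acids into mitochondria to be burnt, and its forms parted. Cpt1a, the form of liver and most other cells, had a rho of -0.492. Cpt1b, the form of muscle and brown fat, had 0.729 with Adipoq and 0.788 with the muscle markers. Cpt1b ranged from 0.292 to 11.7 CPM (median 2.49) in hSS2 controls, from 0.434 to 4.31 CPM (median 1.08) in Pbrm1-fl, from 0.554 to 3.56 CPM (median 1.06) in Arid1a-fl and from 0.564 to 12.4 CPM (median 1.39) in Arid1b-fl tumours. Cpt1b was 0.802, 1.55, 1.22, 1.63 and 1.01 CPM in hSS1 controls and 0.487, 0.908, 1.28 and 0.802 CPM in hSS1 Pbrm1-fl tumours. Slc2a4, the insulin-regulated glucose transporter of fat and muscle, lay between at 0.457. Ucp1, the uncoupling protein of brown fat, had no read in 25 of 37 hSS2 tumours and reached 1.86 CPM in Arid1b-fl replicate 3.

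Adipoq moved with markers of other tissues too. Over the hSS2 tumours its rho was 0.829 with the mean log2 level of the skeletal muscle markers, 0.938 with the fibroblast markers, 0.8 with the macrophage markers and -0.359 with the endothelial markers. The 16 muscle markers summed to 26.6 to 97831 CPM in hSS2 controls, 24.9 to 39275 CPM in Pbrm1-fl, 19.1 to 27018 CPM in Arid1a-fl and 15.2 to 93170 CPM in Arid1b-fl tumours. In hSS1 they summed to 17.7 to 4973 CPM in controls and 17.4 to 235 CPM in Pbrm1-fl tumours. The 8 fibroblast markers summed to 404 to 1046 CPM, 487 to 910 CPM, 371 to 963 CPM and 311 to 814 CPM in the 4 hSS2 groups in the same order. The 7 adipocyte markers summed to 0.408 to 297 CPM, 0.153 to 218 CPM, 0.485 to 24.2 CPM and 0.657 to 86.8 CPM in these groups, and to 0.354 to 1.48 CPM and 0.197 to 9.84 CPM in hSS1 controls and Pbrm1-fl tumours, where Lep was at 0 in every control. The part of these other tissues in the levels of the followers was not tested. Among the 10 genes most like Adipoq, of 17286 over 37 tumours, were Cfd, Plin1, Cidec, C4b (rho 0.949), Abca8a (0.946), Dpt (0.942), Dpp4 (0.935), C3 (0.931) and Hp (0.928), and Dpt is also in the fibroblast list.

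Levels of different genes were compared per kilobase of exon (RPKM, which is CPM divided by the exon length in kilobases, from GENCODE). The highest medians over the hSS2 tumours were those of Acly (35.3 RPKM), Cpt1a (30.1), Fasn (28.6), Srebf1 (25.6) and Scd1 (24.9), and the ranges of neighbours in this order overlapped. The median of Adipoq was 0.400 RPKM, and in its highest tumour it reached 18.96 RPKM, below the median of Fasn. Cfd reached 169.8 RPKM in control replicate 4. In hSS1 tumours the medians were 41.8 RPKM for Acly, 34.3 for Fasn, 24.9 for Cpt1a, 22.8 for Srebf1, 14.8 for Scd1 and 0 for Adipoq. Of the 33 genes, 12 were above 5 CPM in all 46 tumours, and 12 had no read in at least 1.

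**Figure D3:**
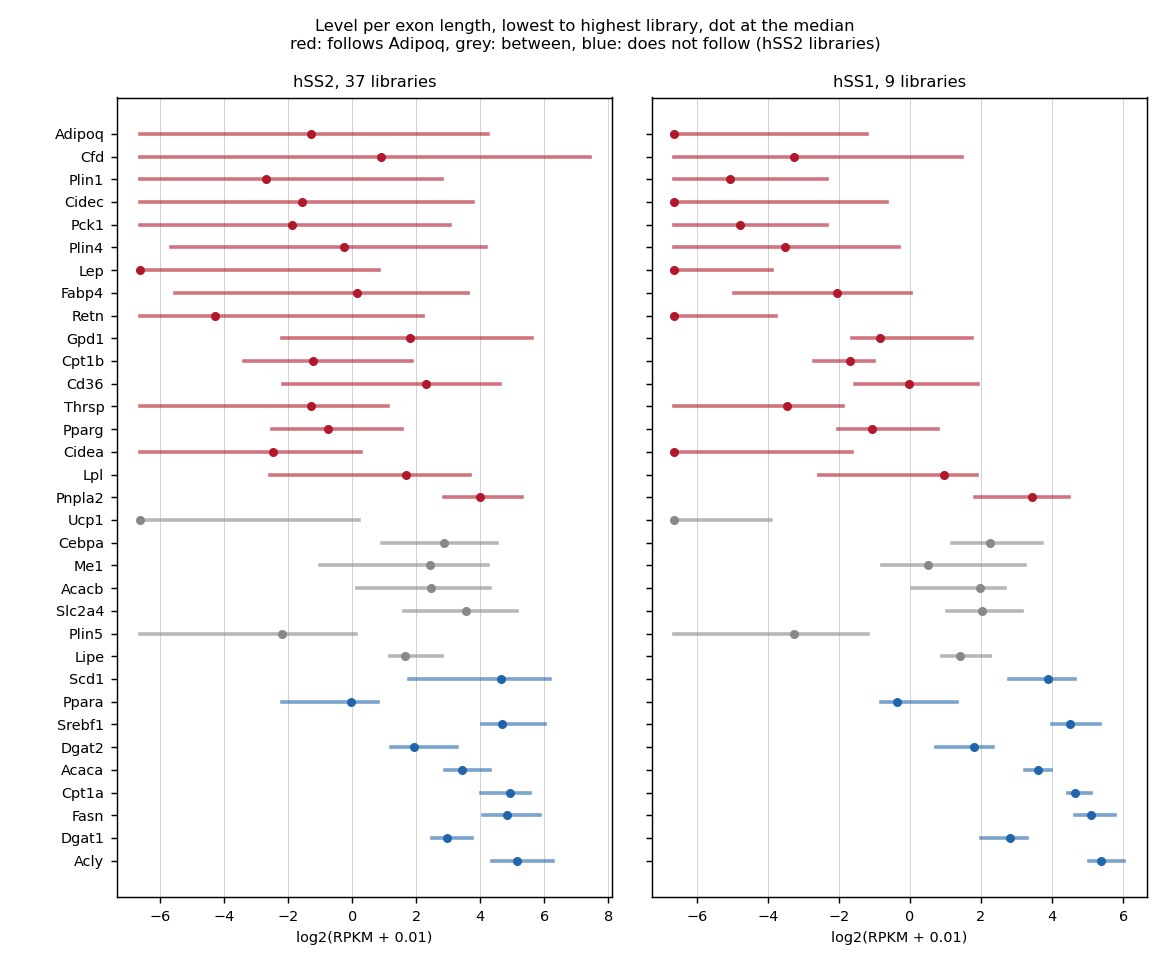
Level of each of the 33 genes per exon length, as log2(RPKM + 0.01), in the 37 hSS2 tumours (left) and the 9 hSS1 tumours (right). Lines run from the lowest to the highest tumour, dots mark the median, and colours give the classes by rho in hSS2 tumours. Adipoq spans 0 to 18.96 RPKM in hSS2 tumours and Fasn only 16.9 to 58.1 RPKM.

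Between hSS2 Pbrm1-fl and control tumours 1 gene of the 33 differed, Cpt1a, which was higher in Pbrm1-fl tumours. It was the only one of 30 tested to pass an adjusted p of 0.05, while over all genes 1476 of 20083, or 7.35%, passed. Cpt1a ranged from 125 to 293 CPM (median 217) in hSS2 controls, from 219 to 356 CPM (median 289.8) in Pbrm1-fl, from 148 to 276 CPM (median 259) in Arid1a-fl and from 143 to 325 CPM (median 212) in Arid1b-fl tumours. All 8 Pbrm1-fl tumours were above the control median and 4 were above every control, with overlap in the rest. The mean was 288 ± 56.4 CPM (SD, n = 8) against 209 ± 50.4 CPM (SD, n = 13) in controls, which gave a log2 fold change of 0.45 with an SE of 0.13 (adjusted p = 0.0294) in edgeR's quasi-likelihood test (SE, standard error) with Benjamini-Hochberg adjustment.

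The call for Cpt1a was lost in some alternatives. Against the 4 controls of the same mouse number range it had a log2 fold change of 0.27 with an SE of 0.18 (adjusted p = 0.555). Its adjusted p rose above 0.05, up to 0.0946, without Pbrm1-fl replicate 3, 4, 5 or 6 or control replicate 11 or 13. The macrophage markers had a median log2 fold change of 0.392 in this comparison, all 10 above 0, and the muscle markers of -0.921, all 16 below 0, with none past the threshold, and their part in the result was not tested.

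Fasn, at 270.1 ± 53.7 CPM (SD, n = 8) in Pbrm1-fl and 333 ± 109 CPM (SD, n = 13) in control tumours, did not pass, having a log2 fold change of -0.31 with an SE of 0.17 (adjusted p = 0.284). Against the 4 controls of the same mouse number range, where it was 321 to 522 CPM, it passed, having a log2 fold change of -0.72 with an SE of 0.20 (adjusted p = 0.0488), and 7 of 8 Pbrm1-fl tumours lay below all 4. In that setting Fasn was 1 gene called of 30, and 2.38% of all genes were called. Adipoq had a log2 fold change of -0.44 with an SE of 1.15 (adjusted p = 0.86). Cebpa, with a mean of 38.04 ± 17.6 CPM (SD, n = 8) against 19.8 ± 11.7 CPM (SD, n = 13), had a log2 fold change of 0.91 with an SE of 0.36 (adjusted p = 0.115). Over the 30 genes the median log2 fold change was -0.118, with 21 below 0, and over all genes it was -0.00424.

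Between hSS2 Arid1a-fl and control tumours 1 gene of the 33 differed, Pnpla2, the enzyme that starts the breakdown of stored triglyceride, which was lower in Arid1a-fl tumours. It was the only one of 30 tested to pass, while over all genes 637, or 3.17%, passed. Pnpla2 ranged from 29.9 to 119 CPM (median 50.2) in hSS2 controls, from 41.3 to 89.01 CPM (median 64.2) in Pbrm1-fl, from 22.2 to 45.4 CPM (median 33.95) in Arid1a-fl and from 26.8 to 67.1 CPM (median 46.7) in Arid1b-fl tumours. Pnpla2 was 49.5, 52.2, 35.99, 32.5 and 15.6 CPM in hSS1 controls and 22.5, 10.7, 67.2 and 30.7 CPM in hSS1 Pbrm1-fl tumours. All 8 Arid1a-fl tumours lay below the control median and 3 below every control, with overlap in the rest.

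Its mean was 32.7 ± 7.96 CPM (SD, n = 8) in Arid1a-fl against 59.8 ± 24.5 CPM (SD, n = 13) in control tumours, which gave a log2 fold change of -0.93 with an SE of 0.23 (adjusted p = 0.0277). Against the 5 controls of the same mouse number range Pnpla2 had a log2 fold change of -1.18 with an SE of 0.27 (adjusted p = 0.00982), where 7% of all genes were called. It lost the call, with an adjusted p of up to 0.0873, without Arid1a-fl replicate 1, 2, 7 or 8. Without control replicate 9, the control low in Arid1a, its adjusted p was 0.0348. Over the hSS2 tumours Pnpla2 had a rho of 0.525 with the muscle, 0.581 with the fibroblast and 0.52 with the macrophage markers. With Adipoq it was 0.615, and 0.587 to 0.692 when each library was left out. The part of these tissues in the result was not tested.

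The fat cell genes had lower means in the Arid1a-fl tumours than in the 13 controls but did not pass in edgeR. Adipoq, with a mean of 0.673 ± 0.889 CPM (SD, n = 8) against 4.99 ± 7.59 CPM (SD, n = 13), had a log2 fold change of -3.00 with an SE of 1.32 (adjusted p = 0.171), and 6 of 8 tumours were below the control median. Against the 5 controls of the same mouse number range it had a log2 fold change of -2.73 with an SE of 1.51 (adjusted p = 0.252). The medians of those 5 controls were below the Arid1a-fl medians for Adipoq (0.177 against 0.395 CPM), Plin1, Cidec and Cfd. They were above them for Fabp4 (13.7 against 2.54 CPM). For Lep and Retn the control medians were 0.0677 and 0.0656 CPM against 0, under 3 reads and so not measurable. The Adipoq median of 0.177 CPM was itself 3 reads, in control replicate 9. Of the 30 genes 25 had a negative log2 fold change, the median was -0.835 against -0.0432 over all genes, and 11 had an unadjusted p under 0.05, against 23% of all genes. Cfd (-3.90, adjusted p = 0.12), Pck1 (-3.32, adjusted p = 0.114) and Cidec (-3.13, adjusted p = 0.159) had more negative log2 fold changes than Adipoq. In DESeq2 Cfd (adjusted p = 0.0345), Pck1 (adjusted p = 0.0421) and Retn (adjusted p = 0.0151) passed beside Pnpla2, where 7.60% of all genes passed, and Adipoq did not. All 16 muscle markers and 7 of 8 fibroblast markers also had negative values, with medians of -1.51 and -1.45 and none past the threshold, and their part in these values was not tested. Fasn was above the control median in all 8 Arid1a-fl tumours, at 415 ± 102 CPM (SD, n = 8), but did not pass, having a log2 fold change of 0.29 with an SE of 0.17 (adjusted p = 0.293).

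Between hSS2 Arid1b-fl and control tumours none of the 30 genes passed in edgeR, where 11 genes of 20083, or 0.0548%, passed. An unadjusted p under 0.05 was reached by 6.22% of all genes and by 1 of the 30, Dgat2, with a log2 fold change of -0.50 with an SE of 0.20 (adjusted p = 0.725). Adipoq had a log2 fold change of -0.58 with an SE of 1.16 (adjusted p = 0.98) and Fasn a log2 fold change of 0.01 with an SE of 0.17 (adjusted p = 0.999). DESeq2, with 0.0603% of all genes called, called none of them either.

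**Figure D4:**
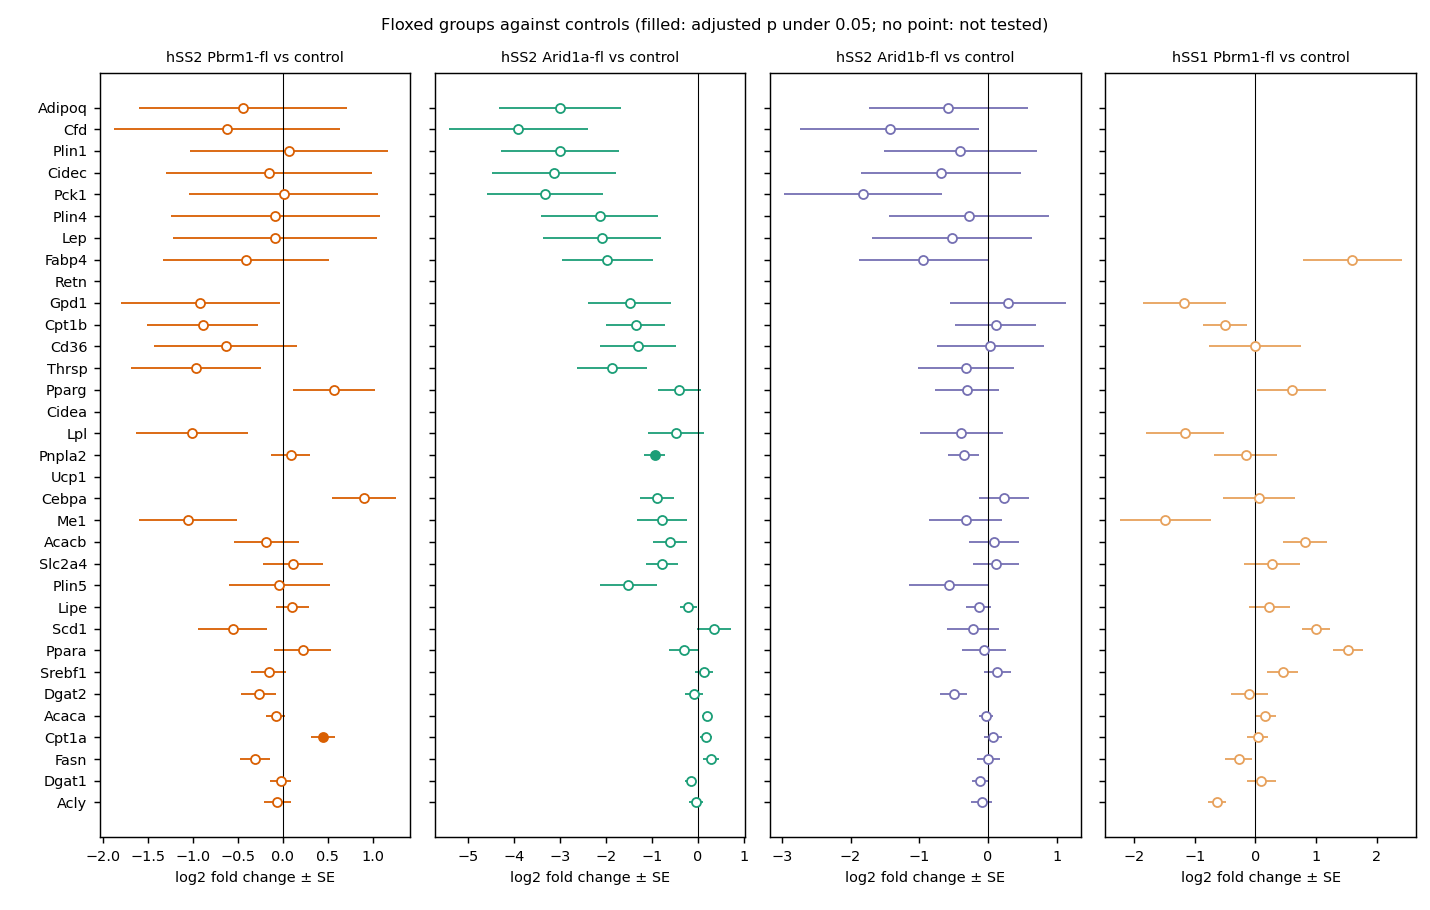
Log2 fold change with its standard error for each tested gene in the 4 comparisons of a floxed group with its controls. Filled points passed an adjusted p of 0.05, which are Cpt1a at 0.45 in hSS2 Pbrm1-fl and Pnpla2 at -0.93 in hSS2 Arid1a-fl tumours. Fat cell genes have wide errors, such as Adipoq with an SE of 1.32 in Arid1a-fl, and synthesis genes narrow ones, such as Fasn with 0.17.

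In hSS1 tumours Pbrm1-fl was compared with control for 21 of the genes, since Adipoq and 11 others had too few reads. None passed in edgeR, where 1 gene of 17786, or 0.00562%, passed, and 4 of the 21 had an unadjusted p under 0.05, against 17.2% of all genes. Fasn had a log2 fold change of -0.28 with an SE of 0.23 (adjusted p = 0.555). Ppara was 2.50, 2.94, 2.78, 2.12 and 2.29 CPM in hSS1 controls and 9.45, 8.44, 5.72 and 5.62 CPM in hSS1 Pbrm1-fl tumours. Scd1 was 39.6, 72.2, 54.9, 33.4 and 64.6 CPM in hSS1 controls and 122, 102, 94.9 and 106 CPM in hSS1 Pbrm1-fl tumours. For both genes every Pbrm1-fl tumour was above every control, and how many of all genes separated in this way is not given here.

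Ppara had a log2 fold change of 1.52 with an SE of 0.25 (adjusted p = 0.0986) and Scd1 a log2 fold change of 1.00 with an SE of 0.23 (adjusted p = 0.121). Acly was 302, 344, 311, 217 and 300.5 CPM in hSS1 controls and 177, 174, 187 and 221 CPM in hSS1 Pbrm1-fl tumours and had a log2 fold change of -0.63 with an SE of 0.15 (adjusted p = 0.122), and 3 of 4 Pbrm1-fl tumours lay below every control. Ppara, Scd1 and Acly passed in DESeq2, the tool of the study's own comparisons, with adjusted p of 2.51e-06, 0.00512 and 0.00824, where 6.27% of all genes passed. In this comparison all 7 tested muscle markers had negative log2 fold changes (median -3.71), as had 8 of 9 macrophage markers (median -0.413) and 8 of 10 endothelial markers (median -0.337), while 3 of 4 tested fibroblast markers had positive ones (median 1.36). The summed level of all 8 fibroblast markers was 181 to 422 CPM in controls and 456 to 1398 CPM in Pbrm1-fl tumours, and that of all 16 muscle markers 17.7 to 4973 and 17.4 to 235 CPM. No marker of these lists passed in edgeR, and their part in these results was not tested. Srebf1 was 99.3, 128, 92.7, 157 and 89.5 CPM in hSS1 controls and 150, 101, 140.1 and 228 CPM in hSS1 Pbrm1-fl tumours, and Cpt1a was 199.8, 183, 188, 262 and 180.4 CPM in hSS1 controls and 214, 167, 259 and 191 CPM in hSS1 Pbrm1-fl tumours. Both of these overlapped.

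The difference between the Pbrm1-fl effects in hSS1 and hSS2 tumours passed for none of 31 genes in edgeR, where 622 of 21725 genes, or 2.86%, passed, and 3 of the 31 had an unadjusted p under 0.05, against 18.9% of all genes. The difference, hSS1 minus hSS2 on the log2 scale, was 1.30 for Ppara (adjusted p = 0.171), 1.55 for Scd1 (adjusted p = 0.168), -0.58 for Acly (adjusted p = 0.203) and -0.42 for Cpt1a (adjusted p = 0.312). It was 0.02 for Fasn (SE 0.30, adjusted p = 0.986) and, with almost no hSS1 reads, 2.17 for Adipoq (SE 2.77, adjusted p = 0.707).

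**Figure D5:**
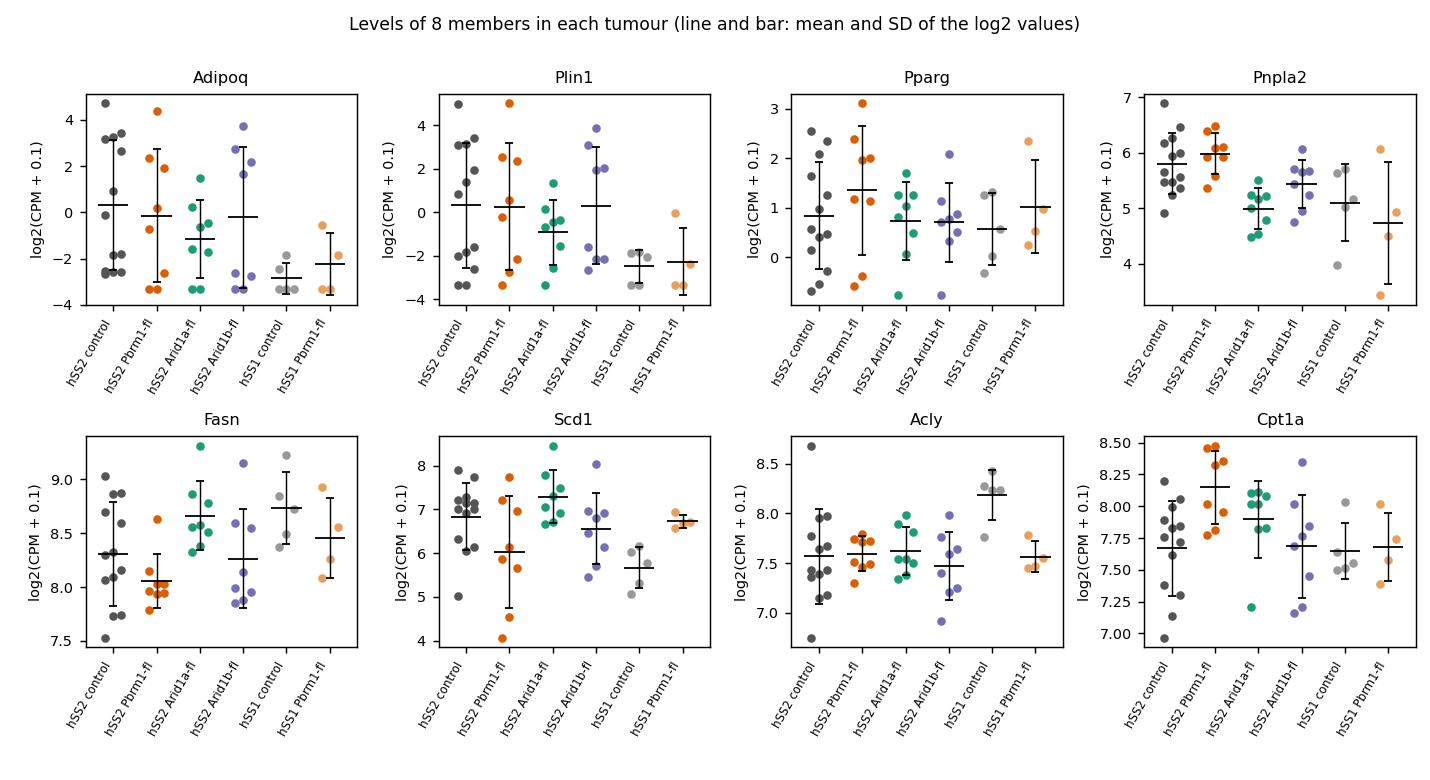
Levels of 8 genes in each of the 46 tumours by group, as log2(CPM + 0.1), with the mean and SD of the log2 values as a line and bar. Adipoq reaches 26.2 CPM and Plin1 32.3 CPM from 0, and Fasn stays between 184 and 636 CPM. The 4 hSS1 Pbrm1-fl tumours sit above the 5 hSS1 controls for Scd1, which did not pass in edgeR (adjusted p = 0.121). The share of all genes that separate in this way is not given.

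Further genes of the same pathways were counted from lists. Of 15 other lipid synthesis genes, all tested, 0 passed in edgeR in the hSS2 Pbrm1-fl, Arid1a-fl, Arid1b-fl and hSS1 Pbrm1-fl comparisons, with 1, 5, 0 and 2 at an unadjusted p under 0.05, where the shares of all genes were 22.4%, 23%, 6.22% and 17.2%. Of 14 other droplet and lipolysis genes, 2 rose in hSS2 Pbrm1-fl tumours, where 7.35% of all genes passed, and none passed in the other 3 comparisons. Plin3, a perilipin found in most cells, was 79.1 ± 15.9 CPM (SD, n = 8) against 53.3 ± 12.2 CPM (SD, n = 13), which is a log2 fold change of 0.55 (adjusted p = 0.00155). Bscl2, which encodes seipin and helps droplets to form, was 64.9 ± 13.8 CPM (SD, n = 8) against 48.7 ± 7.17 CPM (SD, n = 13), which is a log2 fold change of 0.39 (adjusted p = 0.0278). Neither passed against the controls of the same mouse number range (adjusted p = 0.0886 and 0.311).

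Of 16 other adipocyte genes 12 were tested in hSS2, and 1 passed in Pbrm1-fl and 3 in Arid1a-fl tumours, where 7.35% and 3.17% of all genes passed. Klf15, a transcription factor of fat and muscle, was 14.97 ± 10.9 CPM (SD, n = 13) in controls and 6.23 ± 2.54 CPM (SD, n = 8) in Pbrm1-fl tumours, which is a log2 fold change of -1.30 (adjusted p = 0.0311). In Arid1a-fl tumours it was 5.61 ± 3.52 CPM (SD, n = 8), which is a log2 fold change of -1.48 (adjusted p = 0.0364). Against controls of the same range Klf15 passed in Arid1a-fl (adjusted p = 0.00404) but not in Pbrm1-fl tumours (adjusted p = 0.335). In Arid1a-fl tumours Tshr, the thyrotropin receptor, was 0.453 ± 0.578 CPM (SD, n = 8) against 2.35 ± 2.43 CPM (SD, n = 13) (-2.38, adjusted p = 0.0398). Ebf2, a factor of fat cell precursors and other mesenchymal cells, was 339 ± 232 CPM (SD, n = 8) against 92.5 ± 63.1 CPM (SD, n = 13) (1.83, adjusted p = 0.048). Neither passed against controls of the same range (adjusted p = 0.137 and 0.126).

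Of 7 brown adipocyte genes 4 were tested in hSS2. Only Prdm16, a transcription factor of brown fat that is also made in other tissues, passed, in the Pbrm1-fl and Arid1a-fl comparisons. Of all genes 7.35% and 3.17% passed there. Prdm16 was 41.02 ± 16.6 CPM (SD, n = 13) in controls, 81.2 ± 33.05 CPM (SD, n = 8) in Pbrm1-fl tumours (log2 fold change 0.96, adjusted p = 0.027) and 82.3 ± 51.3 CPM (SD, n = 8) in Arid1a-fl tumours (0.96, adjusted p = 0.048). Against controls of the same range it passed in Arid1a-fl (adjusted p = 0.0202) but not in Pbrm1-fl tumours (adjusted p = 0.342). Its rho with Adipoq was -0.146, and Ucp1 and Cidea, defining genes of brown fat, were too low to be tested. Both comparisons share the 13 control tumours. No gene of the other adipocyte or brown adipocyte lists passed in the Arid1b-fl or hSS1 comparisons. No tested gene of the adipocyte, skeletal muscle, endothelial, macrophage or fibroblast marker lists passed in edgeR in any of the 4 comparisons. The shares of all genes that passed were 7.35%, 3.17%, 0.0548% and 0.00562% in hSS2 Pbrm1-fl, Arid1a-fl, Arid1b-fl and hSS1 Pbrm1-fl tumours. In hSS1 only 1 of 7 adipocyte markers was tested. In Arid1a-fl tumours an unadjusted p under 0.05 was reached by 4 of 6 adipocyte, 0 of 16 muscle, 0 of 10 endothelial, 0 of 10 macrophage and 2 of 8 fibroblast markers, against 23% of all genes.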

How the data were processed

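The deposited files hold raw read counts per gene, which the authors made from stranded, ribosomal RNA-depleted libraries of frozen tumour tissue. Per the submitters' processing notes they used STAR 2.7.11 and featureCounts 1.6.3 with build mm10. The annotation release, strand setting and handling of multimapping reads are not given in the sources used here. Of the 33 genes 12 share bases with another annotated gene, which can affect their counts, but not Adipoq, Cpt1a, Pnpla2, Fasn or Scd1.

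From these counts, levels were computed as CPM of the library total and as RPKM with exon lengths of GENCODE M21. Groups came from the labels. Each floxed group was compared with its controls in edgeR 4.0.16 (R 4.3.3, limma 3.58.1) with filterByExpr, TMM scaling, the robust quasi-likelihood test and Benjamini-Hochberg adjustment at 0.05 over all genes tested. The 37 hSS2 libraries shared 1 fit, the 9 hSS1 libraries another, and all 46 were fitted together for the difference between backgrounds. The script was tested on simulated data. Likeness to Adipoq was Spearman's rho on log2(CPM + 0.1), and 1 of the 10 genes most like it is not reported here. Alternatives were DESeq2 1.42.0, its size factors, no filter on low counts, controls of the same mouse number range and leaving out each library. The ranges of mouse numbers were under 1000, 1000 to under 2000, and 2000 and over.

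The members and lists were chosen with earlier results of these data known. Full statistics were given for every member past the threshold and for Adipoq and Fasn, levels by group for these and for Plin1, Cidec, Fabp4, Pparg, Lpl, Scd1, Acaca, Acly, Srebf1, Cpt1a and Cpt1b, and for other lists the counts and the genes that passed. Ppara, Cebpa, Dgat2, Cfd and Pck1 were named after their values were seen.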

Additional observations from a re-analysis of the deposited data

Results flagged for a closer look

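In 42 of 151 groups tested, over all genes described, the highest or lowest tumour lay further from the others than Dixon's 95% limit allows. Chance flags about 1 in 20 such groups where values are normally distributed. The rate for CPM was not measured, and 41 of the 42 flags were on the highest tumour. The hSS2 controls, with 13 tumours, were not among the groups tested, and no flag is given for them. In control replicate 4 Cfd was 156.6 CPM, against 40.57 CPM in the next highest hSS2 control. Adipoq was 26.18 CPM there against 10.79 CPM, and Retn was 7.212 CPM against 1.375 CPM.

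Pbrm1-fl replicate 1 of the hSS2 tumours was the highest of its group by this measure in 8 fat genes: Adipoq (20.5 CPM), Lep (5.28), Retn (2.26), Cfd (86), Plin1 (32.3), Fabp4 (53), Lipe (40.7) and Pck1 (25). Arid1a-fl replicate 2 was the highest in 5, with Adipoq at 2.68 CPM, Lep at 1.48, Cfd at 6.84, Plin1 at 2.46 and Pck1 at 1.97. Arid1b-fl replicate 4 was the highest in Retn (2.13 CPM), Cfd (33.2) and Pparg (4.13), and hSS1 Pbrm1-fl replicate 1 in Cfd (2.53 CPM), Plin1 (0.877), Plin4 (4.58) and Pck1 (0.585).

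Arid1b-fl replicate 6, a tumour with no Adipoq read, was the highest of its group in Dgat1 (36.1 CPM), Srebf1 (295), Fasn (567) and Scd1 (261), all genes that do not follow Adipoq. Arid1b-fl replicate 1 was the highest in Lep (3.08 CPM), Plin5 (1.8) and Gpd1 (144), and Arid1b-fl replicate 3 in Cidea (1.35 CPM) and Ucp1 (1.87).

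The other flags were scattered over single genes. Fasn was highest in Pbrm1-fl replicate 8 (395 CPM) and in Arid1a-fl replicate 8 (636 CPM). Srebf1 was highest in Pbrm1-fl replicate 3 (200 CPM) and Acaca in Pbrm1-fl replicate 2 (221 CPM). Arid1a-fl replicate 1 was the highest in Dgat2 (21.8 CPM) and the lowest in Cpt1a (148 CPM), Arid1a-fl replicate 3 the highest in Cebpa (24.4 CPM) and Arid1a-fl replicate 5 in Cpt1b (3.55 CPM). Among hSS1 controls, replicate 5 was the highest in Cd36 (13.6 CPM) and Cebpa (34.3), replicate 2 in Gpd1 (9.86 CPM), and replicate 4 in Me1 (36.4 CPM) and Cpt1a (261).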

How the results depend on the processing

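No paired analysis was possible because the labels give no pairing of the tumours. With DESeq2, 4 of the genes passed in Arid1a-fl tumours, Pnpla2 with Cfd, Pck1 and Retn, and 3 in hSS1 Pbrm1-fl tumours. In the 9 hSS1 libraries 3 genes followed Adipoq, which had no read in 5 of them. Fasn in Arid1b-fl tumours turned to -0.0053 with DESeq2 size factors and to -0.0045 with DESeq2. The cause was not tested. When each library was left out in turn, the genes past the threshold numbered 0 to 2 in hSS2 Pbrm1-fl, 0 to 1 in Arid1a-fl, 0 in Arid1b-fl, 0 in hSS1 Pbrm1-fl and 0 to 1 in the difference between backgrounds, and 15 to 18 genes followed Adipoq. The log2 fold change of Adipoq then ranged from -1.84 to 0.2 in Pbrm1-fl and from -1.26 to 0.06 in Arid1b-fl tumours, turning positive in each only without control replicate 4. That of Fasn ranged from -0.13 to 0.07 in Arid1b-fl tumours and from -0.16 to 0.19 in the difference between backgrounds. Over all genes the calls changed from 1476 to 477 in Pbrm1-fl and from 637 to 1405 in Arid1a-fl with controls of the same range, and to 0 from 11 in Arid1b-fl, 0 from 1 in hSS1 and 9 from 622 in the difference, where 529, 2205 and 2530 genes had an unadjusted p under 0.05. With DESeq2 they were 2282, 1740, 18, 1244 and 1160 in that order, and with no filter on low counts 1231, 243, 27, 1 and 402. Leaving out 1 library moved the calls over all genes in Arid1a-fl between 56 (without Arid1a-fl replicate 8) and 1416 (without Arid1a-fl replicate 6). Without the filter Bscl2 in Pbrm1-fl (adjusted p = 0.0501) and Ebf2, Klf15, Prdm16 and Tshr in Arid1a-fl tumours (adjusted p = 0.0538 to 0.079) no longer passed. Leaving out 1 library at a time raised the adjusted p above 0.05 in 14 of 21 cases for Ebf2 (up to 0.144) and Prdm16 (0.162) and in 8 for Klf15 (0.103) and Tshr (0.0993) in Arid1a-fl tumours, and in 6 for Klf15 (0.0627), 5 for Prdm16 (0.0768), 5 for Bscl2 (0.0929) and 0 for Plin3 in Pbrm1-fl tumours. Depth limits the fat cell genes most, since Adipoq had 3 reads or fewer in 16 of 37 hSS2 and 8 of 9 hSS1 libraries.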
